A study of Homo sapiens with 4 samples.

Results

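The BCL2 family decides whether the outer membrane of the mitochondrion stays closed or is opened during apoptosis. A set of 10 genes of the family were chosen by name for this description: the anti-apoptotic BCL2, MCL1 and BCL2L1, the effectors BAX and BAK1, and the BH3-only genes BCL2L11, BMF, BBC3, PMAIP1 and BID. Of these 10 genes, 9 were read from a transcript cluster that carried a single gene symbol, out of 22411 genes measured in this way. BBC3, which encodes the BH3-only protein PUMA, shared its transcript cluster with other gene symbols, and no value is given for it.

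The arrays profiled RNA of U266 cells, a human multiple myeloma line, on Affymetrix Human Transcriptome 2.0 arrays. In all, 2 groups of 2 arrays were compared. The trabectedin arrays came from U266 cells kept for 24 h with trabectedin, a marine-derived drug that binds DNA in the minor groove and interferes with transcription; the sample labels give its dose as 2.5 nM and the treatment protocol as 2.5 μM. The control arrays came from U266 cells kept for 24 h with PBS and no drug. According to the methods the drug was dissolved in DMSO, so vehicle and drug cannot be told apart in this comparison. All 4 arrays are of this 1 cell line, and no genetic change was made in either group. The replicates are labelled as biological, and the methods name separate experiments without saying which arrays came from which. The p-values weigh a difference against the spread between the arrays of a group. In limma's fit this spread is drawn toward the typical spread over all genes. The values are from bulk RNA, in which fewer cells of a kind and less RNA per cell cannot be told apart.

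Anti-apoptotic members hold the other family proteins in a hydrophobic groove. BAX and BAK1 form the pores through which cytochrome c leaves the mitochondrion, and BH3-only proteins start the process by occupying the groove of the anti-apoptotic members or by activating BAX and BAK1 directly. Plasma cells and myeloma cells are known for their need of MCL1, and their sensitivity to BH3-mimetic drugs differs with the balance between MCL1, BCL2 and BCL-xL, the long protein form made from BCL2L1. Each gene was represented by 1 transcript cluster, and a second was read for BCL2L11 alone among the members. The long and short forms of BCL2L1 and MCL1 and the splice forms of BIM, the product of BCL2L11, were not separated.

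The array medians over all genes lay between 5.88 and 5.94 with trabectedin and between 5.83 and 5.90 in controls (log2 RMA values). The labelled cell type was checked against markers. The 8 plasma cell markers averaged 11.06 to 11.09 with trabectedin and 11.21 to 11.37 in controls, with a range over single genes from 6.34 (MZB1) to 13.98 (IRF4). The 5 T cell markers averaged 4.63 to 4.72 with trabectedin and 4.40 to 4.55 in controls, the 5 monocyte markers 4.28 to 4.41 with trabectedin and 4.26 to 4.30 in controls, and the 4 of 5 fibroblast markers that were measured 5.04 to 5.11 with trabectedin and 4.91 to 4.93 in controls. The averages of these other cell types lay below the array medians in all 4 arrays, and their part in the results was not tested.

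No member passed limma's moderated test, fitted without a replicate block, at an adjusted p under 0.05. The share of all genes called at this threshold was 0% in either direction. A replicate block changed these calls, for BCL2 among the members, as given in the last section. The labels do not say that a replicate number marks a shared experiment. At an unadjusted p under 0.05, 2 members (BMF and BAK1) had higher means and 1 (BCL2) a lower mean with trabectedin, among 1635 higher and 1501 lower genes in all. The median log2 fold change, trabectedin over control, was 0.11 over the 9 members and 0.10 over all genes. By class, both trabectedin arrays lay below both control arrays for 3 of 3 anti-apoptotic members and above them for 2 of 2 effectors. Of the 4 BH3-only members measured, 2 lay above, 1 below and 1 overlapped. Several of these gaps were narrow. For the anti-apoptotic members they were 0.58 (BCL2), 0.05 (MCL1) and 1e-04 log2 units (BCL2L1). For the effectors they were 0.19 (BAK1) and 0.04 (BAX), and for BMF, BCL2L11 and BID 0.45, 0.09 and 0.05. Over all genes, both trabectedin arrays lay above both controls for 35.8% and below both controls for 13.5%. With 2 arrays per group, the smallest p that an exact two-sided permutation test can give for a single gene is 0.333.

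**Figure D1:**
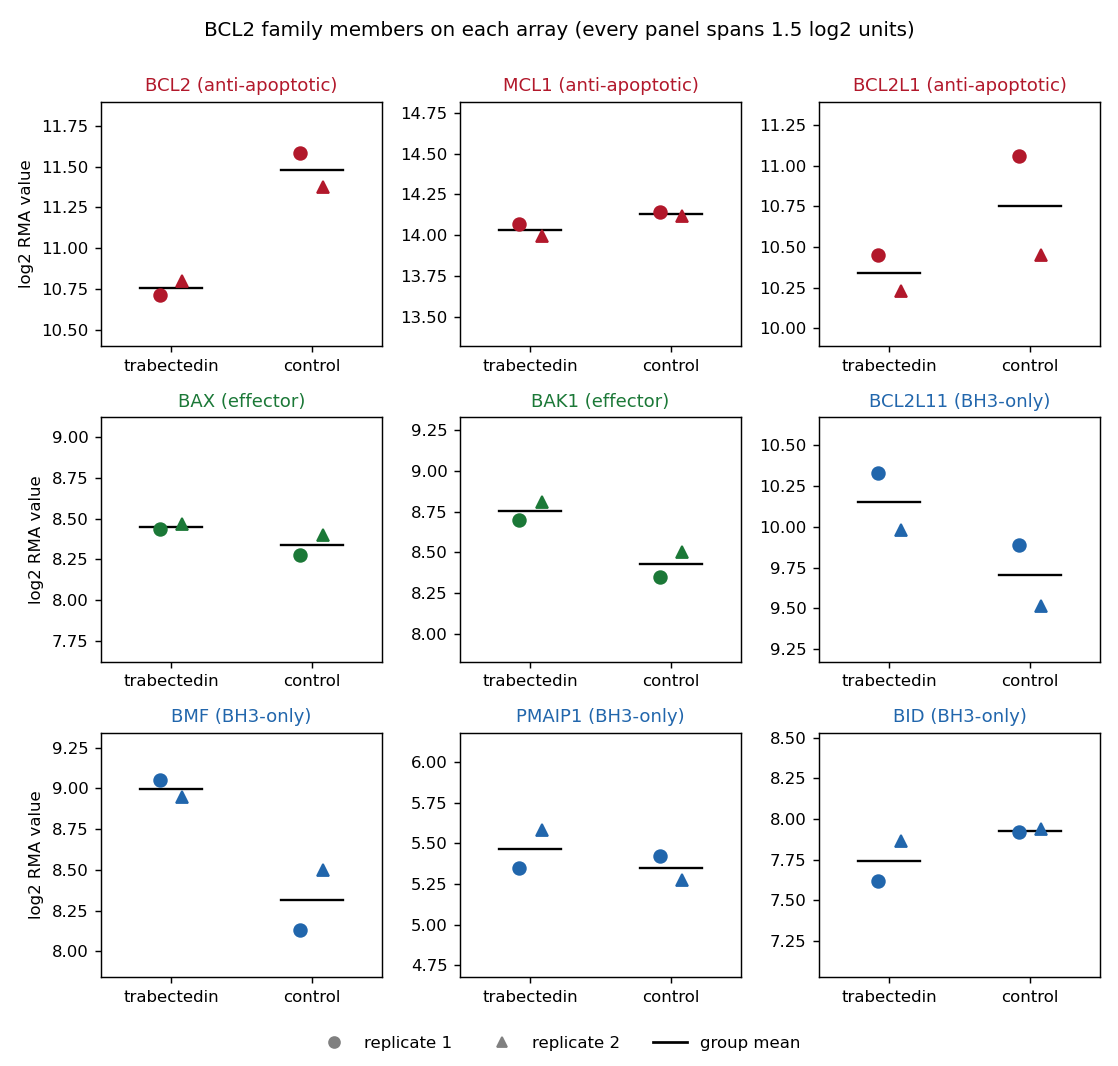
Log2 RMA value (y axis) of the 9 members measured on each array, by group (x axis); circles are replicate 1, triangles replicate 2 and bars group means (n = 2 each). BCL2 shows the widest gap below the controls (0.58 log2 units) and BMF the widest gap above them (0.45), whereas PMAIP1 overlaps; every panel spans 1.5 log2 units around a different level.

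BCL2, the founding anti-apoptotic member and the target of venetoclax, had log2 values of 10.71 and 10.80 with trabectedin, against 11.58 and 11.38 in controls. The groups did not overlap, and the gap between the nearest arrays, 0.58, was wider than the distance between the replicates of either group. The group means were 10.76 ± 0.06 with trabectedin and 11.48 ± 0.15 in controls (SD, n = 2 each), which is 1.65-fold lower with trabectedin. The log2 fold change was -0.72 (SE 0.13, 95% interval -1.05 to -0.39), with limma's adjusted p = 0.117. Whether BCL2 passed the adjusted test depended on the replicate block, whose values are in the last section. BCL2 was the anti-apoptotic member that differed by at least 1.5-fold, a size reached in the lower direction by 4.63% of all genes.

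BCL2L1 had log2 values of 10.45 and 10.23 with trabectedin, against 11.06 and 10.45 in controls. The higher trabectedin array and the lower control array differed by only 1e-04 log2 units, so the groups touched, and control replicate 1 stood above the 3 other arrays. The log2 fold change was -0.41 (SE 0.23, 95% interval -1.03 to 0.20, adjusted p = 0.498, limma). It was -0.11 without control replicate 1 and -0.72 without control replicate 2, past 1.5-fold, and so its size rested on which control array was kept. Replicate 1 was the higher array in both groups. Leaving out 1 control does not separate a shift between replicates from the size of the difference.

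MCL1, a short-lived protein that is replaced continuously by new synthesis, had log2 values of 14.07 and 13.99 with trabectedin, against 14.14 and 14.12 in controls. Both trabectedin arrays were lower, by a gap of 0.05 log2 units. The log2 fold change of -0.10 was no larger than its SE of 0.11, and its unadjusted 95% interval from -0.38 to 0.18 includes 0 (adjusted p = 0.691, limma). For MCL1 it was -0.22 when quantile normalization was repeated and -0.32 (SE 0.17) after scaling to ribosomal protein genes. That scaling lowers the log2 fold change of every gene by the same amount, and the median over all genes was then -0.12.

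Among the effectors, BAK1 is the one that resides on the mitochondrial membrane, and BAX moves there from the cytosol. BAK1 had log2 values of 8.70 and 8.81 with trabectedin, against 8.35 and 8.50 in controls, with a gap of 0.19. The log2 fold change of BAK1 was 0.33 (SE 0.12, 95% interval 0.01 to 0.64), 1.25-fold higher, with limma's adjusted p = 0.344. BAX had log2 values of 8.44 and 8.46 with trabectedin, against 8.28 and 8.40 in controls, and its log2 fold change of 0.11 equalled its SE (95% interval -0.18 to 0.40, adjusted p = 0.677, limma). The difference of BAX was close to the median of all genes (0.10), and it was -0.10 when the arrays were scaled to ribosomal protein genes. Neither effector differed by 1.5-fold.

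BMF encodes a BH3-only protein that is held on the actin cytoskeleton in healthy cells and released under stress. Its log2 values were 9.05 and 8.95 with trabectedin, against 8.13 and 8.50 in controls. Both trabectedin arrays lay above the controls, although the controls differed from each other by 0.37. The group means were 9.00 ± 0.07 with trabectedin and 8.32 ± 0.26 in controls (SD, n = 2 each), which is 1.61-fold higher with trabectedin. The log2 fold change was 0.68 (SE 0.16, 95% interval 0.26 to 1.11, adjusted p = 0.182, limma). BMF was the BH3-only member that differed by at least 1.5-fold, a size reached in the higher direction by 2.8% of all genes. Without control replicate 1 its log2 fold change was 0.50 and that of BCL2L11 was 0.64, so that BCL2L11 and not BMF was then past 1.5-fold; without trabectedin replicate 2 they were 0.73 and 0.62, both past it.

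BCL2L11, whose product BIM binds all anti-apoptotic members, had log2 values of 10.33 and 9.98 with trabectedin, against 9.89 and 9.52 in controls. The groups did not overlap, but the gap of 0.09 was narrower than the distance between replicates, which was 0.34 with trabectedin and 0.37 in controls, replicate 1 being the higher in both groups. The log2 fold change was 0.45 (SE 0.19, 95% interval -0.06 to 0.96, adjusted p = 0.397, limma), and it ranged from 0.27 to 0.64 when each array was left out in turn. A second transcript cluster of BCL2L11 had log2 values of 7.75 and 6.75 with trabectedin, against 7.19 and 6.56 in controls. The groups overlapped on that cluster, and its log2 fold change was 0.38.

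BID, which links death receptors to mitochondria once a caspase has cleaved it, had log2 values of 7.62 and 7.87 with trabectedin, against 7.92 and 7.94 in controls. Both trabectedin arrays were lower, and the log2 fold change was -0.19 (SE 0.13, 95% interval -0.53 to 0.16, adjusted p = 0.570, limma). PMAIP1, whose product NOXA binds MCL1, had log2 values of 5.35 and 5.58 with trabectedin, against 5.42 and 5.27 in controls. The groups overlapped, and the log2 fold change was 0.12 (SE 0.14, 95% interval -0.24 to 0.47, adjusted p = 0.721, limma). PMAIP1 was the member whose values lay below the array median of all genes on every array, and its log2 fold change was -0.10 after scaling to ribosomal protein genes.

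**Figure D2:**
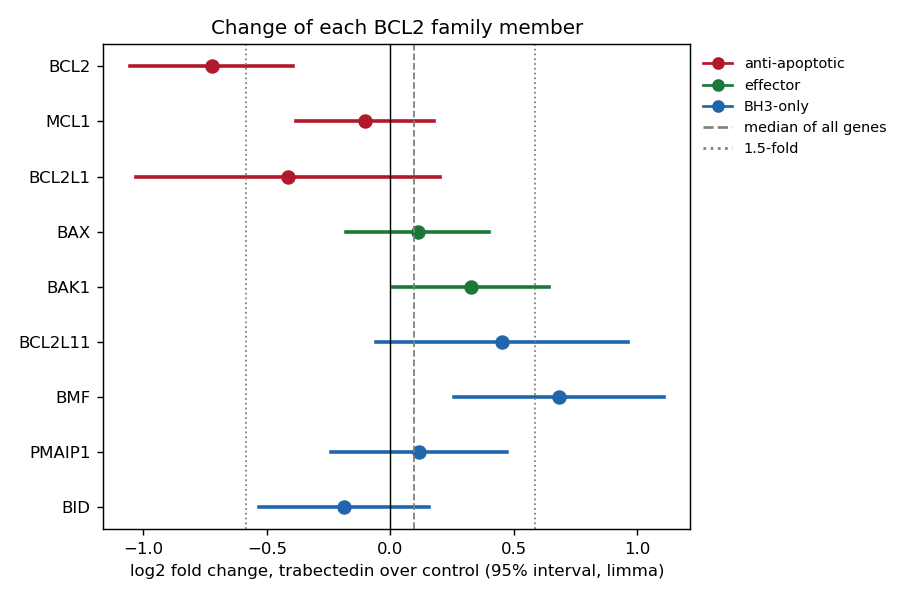
Log2 fold change, trabectedin over control (x axis), of the 9 members (y axis), with limma's 95% interval from 2 arrays per group; the dashed line is the median of all genes (0.10) and the dotted lines mark 1.5-fold. The intervals of BCL2 (-1.05 to -0.39), BMF (0.26 to 1.11) and BAK1 (0.01 to 0.64) do not include 0, before any adjustment for the number of genes.

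The promoter windows of BCL2, the lowest member by fold change, and of BMF and BCL2L11, the highest 2, are shown because the results turn on these genes. They are RefSeq sequences of build GRCh38.p14, written 5′ to 3′ from 250 bases before to 50 bases after an annotated start. BCL2 is at chr18:63319720-63320019 (minus strand), BMF at chr15:40108830-40109129 (minus strand, the first of its 2 windows) and BCL2L11 at chr2:111120664-111120963 (plus strand). The BCL2 gene reaches to 63320090 on its upstream side in RefSeq, so the whole BCL2 window lies inside the gene. The windows of BMF and BCL2L11 span the outer start of their genes. Capitals mark matches, on either strand, to 1 of 7 motifs given below the sequences.
BCL2: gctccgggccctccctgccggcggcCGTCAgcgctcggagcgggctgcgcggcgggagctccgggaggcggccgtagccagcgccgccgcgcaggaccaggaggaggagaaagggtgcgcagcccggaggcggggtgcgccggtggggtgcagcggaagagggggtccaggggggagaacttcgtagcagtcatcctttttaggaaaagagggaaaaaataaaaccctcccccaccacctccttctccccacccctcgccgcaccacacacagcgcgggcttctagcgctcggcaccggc
BMF: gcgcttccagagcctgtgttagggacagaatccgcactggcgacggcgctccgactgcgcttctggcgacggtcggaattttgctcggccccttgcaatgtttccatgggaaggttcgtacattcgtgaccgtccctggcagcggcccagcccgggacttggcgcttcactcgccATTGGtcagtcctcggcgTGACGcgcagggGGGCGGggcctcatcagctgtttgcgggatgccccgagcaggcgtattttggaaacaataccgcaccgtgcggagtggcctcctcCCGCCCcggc
BCL2L11: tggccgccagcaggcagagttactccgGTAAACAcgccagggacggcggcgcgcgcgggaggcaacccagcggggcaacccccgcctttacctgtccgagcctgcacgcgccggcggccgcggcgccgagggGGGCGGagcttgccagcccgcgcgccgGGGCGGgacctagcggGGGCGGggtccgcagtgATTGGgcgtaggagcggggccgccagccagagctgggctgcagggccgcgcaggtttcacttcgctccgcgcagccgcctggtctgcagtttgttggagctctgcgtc

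The motifs searched on both strands were the GC box (GGGCGG, in 45.0% of all 35116 RefSeq promoter windows), the CCAAT box (CCAAT, 34.6%), the TATA box (TATAAA, 11.5%), the E-box (CACGTG, 7.26%), the half-site of the cAMP response element (TGACG, 24.6%), a FOXO core (GTAAACA, 3.42%) and an E2F core (TTTNNCGC, 6.89%). No matches of different motifs overlapped in the windows shown. The BCL2 window held 1 match, to the cAMP response element half-site. The BMF window held 2 GC boxes, 1 CCAAT box and 1 cAMP response element half-site. The BCL2L11 window held 3 GC boxes, 1 CCAAT box and 1 FOXO core, the match of lowest share among these; FOXO factors are known activators of BIM transcription. The GC content was 70.7% for BCL2, 65.0% for BMF and 74.7% for BCL2L11, against a median of 58.7% over all windows. In all, 8 of the 9 members measured had promoter windows, 14 in number. A FOXO core was matched in the window of BCL2L11 alone among them, and a TATA box in 1 of the 2 windows of BCL2L1 alone. A match is a description of letters and was not tested as a binding site.

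Gene length moved with the differences over all genes, and so the members were set beside genes of like length in RefSeq. BCL2 spans 196.7 kb. Among the 1861 genes of 100 to 200 kb, the median log2 fold change was -0.12, 21.5% were at least 1.5-fold lower with trabectedin, and 14.9% had a log2 fold change at or below that of BCL2. Among genes of 20 to 50 kb, which include BMF at 20.99 kb, BCL2L11 at 47.5 kb and BID at 40.5 kb, the median was 0.11, 2.94% were at least 1.5-fold higher and 0.634% at least 1.5-fold lower. BCL2L1 spans 59.5 kb, in a class of 50 to 100 kb with a median of 0.04 and 3.56% of genes at least 1.5-fold lower. MCL1, BAX and BAK1 lie in the class of 5 to 10 kb, where both trabectedin arrays were below both controls for 5.13% of genes and above them for 43.6%; the effectors were above them and MCL1 below. Across the 9 members Spearman's rho between length and log2 fold change was -0.4, and -0.14 across the 8 members other than BCL2; these points share the same 4 arrays, and the values are a description. The part of gene length in the result for BCL2 was not tested.

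**Figure D3:**
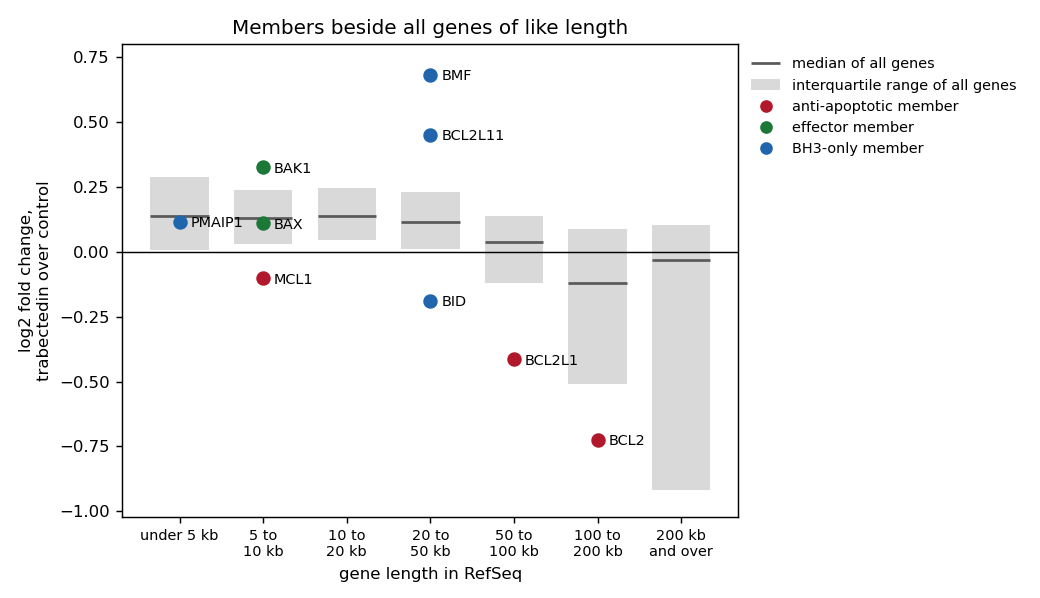
Log2 fold change, trabectedin over control (y axis), of the 9 members (points) placed in the class of their gene length in RefSeq (x axis), over the interquartile range (grey bars) and median (lines) of all genes in that class. BCL2 lies below the interquartile range of genes of 100 to 200 kb, whose median was -0.12, and BCL2L1, MCL1 and BID also lie below the range of their class; BMF, BCL2L11 and BAK1 lie above theirs, and BAX and PMAIP1 within.

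The rest of the family was read from a list of 13 further genes, all measured. None passed the adjusted test or differed by 1.5-fold. Both trabectedin arrays lay above both controls for 4 of them and below for 1, and the groups overlapped for 8, where 35.8% of all genes lay above and 13.5% below. Their median log2 fold change was 0.05. The anti-apoptotic BCL2L2, which encodes BCL-w, had a log2 fold change of 0.04, and the effector-like BOK had 0.18. BOK was among the 4 that lay above, with log2 values of 4.72 and 4.71 with trabectedin, against 4.55 and 4.53 in controls. Its values lay below the array median of all genes on every array. Among BH3-only genes, BAD, a protein held inactive by survival kinases, had 0.05, BIK -0.12 and HRK 0.03. BNIP3, a hypoxia-induced gene of mitophagy, had log2 values of 9.74 and 9.79 with trabectedin, against 9.23 and 9.34 in controls. Its groups did not overlap, and the log2 fold change was 0.48 (SE 0.11, adjusted p = 0.175, limma). The signs of BCL2L2, BOK, BAD and HRK turned negative after scaling to ribosomal protein genes. This scaling lowers every gene by the same amount, so small positive values turn negative whatever the gene.

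Downstream of the mitochondrial pore, cytochrome c and APAF1 build the apoptosome that activates caspase-9. Of 12 genes listed there 10 were measured, and both trabectedin arrays lay above both controls for 6 and below for 2 (35.8% and 13.5% of all genes), with a median log2 fold change of 0.20 and none past 1.5-fold. CYCS, which encodes cytochrome c, had log2 values of 12.94 and 13.12 with trabectedin, against 12.51 and 12.70 in controls, with a log2 fold change of 0.42 (SE 0.13, adjusted p = 0.281, limma). APAF1 had log2 values of 7.39 and 7.74 with trabectedin, against 7.88 and 8.07 in controls, with a log2 fold change of -0.41 (SE 0.17, adjusted p = 0.380, limma). The groups did not overlap for either gene, in opposite directions. CASP9 had a log2 fold change of 0.07, and the groups overlapped.

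Several family proteins are removed by ubiquitin ligases or kept by deubiquitinases, and 9 such genes were listed, all measured. In 6 of the 9 genes both trabectedin arrays lay below both controls, and in 1 above, against 13.5% of all genes below and 35.8% above. Several of the 9 genes are longer than 100 kb. Among all genes of 100 to 200 kb 45.7% lay below, and among those of 200 kb and over 44.8%. The median log2 fold change of the 9 genes was -0.32, and 4 were at least 1.5-fold lower (4.63% of all genes), although none passed the adjusted test. BTRC, an F-box subunit of SCF ubiquitin ligases, had log2 values of 6.92 and 7.22 with trabectedin, against 9.01 and 9.01 in controls. It was 3.83-fold lower with trabectedin (log2 fold change -1.94, SE 0.14, adjusted p = 0.0762, limma). FBXW7, the F-box subunit that recognises phosphorylated MCL1, had log2 values of 8.55 and 8.70 with trabectedin, against 9.54 and 9.67 in controls, and was 1.97-fold lower (log2 fold change -0.98, SE 0.12, adjusted p = 0.0778, limma). These 2 genes code for subunits that promote breakdown of their targets.

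The deubiquitinases of the same list, which are known to spare MCL1 from breakdown, had values on the same side. USP9X had log2 values of 11.71 and 11.82 with trabectedin, against 12.39 and 12.39 in controls (1.54-fold lower, log2 fold change -0.62, SE 0.11, adjusted p = 0.119, limma). USP13 had log2 values of 8.36 and 8.15 with trabectedin, against 9.29 and 8.86 in controls (1.76-fold lower, log2 fold change -0.82, SE 0.19, adjusted p = 0.171, limma). Of 6 inhibitor of apoptosis genes 5 were measured, with a median log2 fold change of 0.21 and a highest of 0.50. Both trabectedin arrays lay above both controls for 3 of them and below for 1, BIRC6, against 35.8% and 13.5% of all genes. The groups overlapped for 1, and BIRC6 was apart from the others. BIRC6, a very large ubiquitin ligase, had log2 values of 10.84 and 11.04 with trabectedin, against 12.45 and 12.13 in controls, and was 2.55-fold lower (log2 fold change -1.35, SE 0.16, adjusted p = 0.0762, limma). In none of BTRC, FBXW7, USP9X, USP13 and BIRC6 did the groups overlap. They span 203 kb (BTRC), 216 kb (FBXW7), 151 kb (USP9X), 136 kb (USP13) and 262 kb (BIRC6), and 21.5% of all genes of 100 to 200 kb and 32.0% of those of 200 kb and over were at least 1.5-fold lower; the part of gene length in these values was not tested.

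The 2 remaining lists held no gene past 1.5-fold. Of the 4 genes for VDAC channels and MTCH2, a mitochondrial receptor of BID, 1 had both trabectedin arrays above the controls, against 35.8% of all genes. Their median log2 fold change was 0.17. Of 9 listed transcription factors known to act on BH3-only genes 7 were measured. In 2 of them, FOXO1 and FOXO3, both trabectedin arrays lay below the controls, against 13.5% of all genes. The gap was only 0.0016 log2 units for FOXO1 and 0.21 for FOXO3. The groups overlapped for the other 5. Of the 53 listed genes 48 were measured. Among these 48, 0 were at least 1.5-fold higher and 5 at least 1.5-fold lower, against 2.8% and 4.63% of all genes. The median log2 fold change over the 48 was 0.08.

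**Figure D4:**
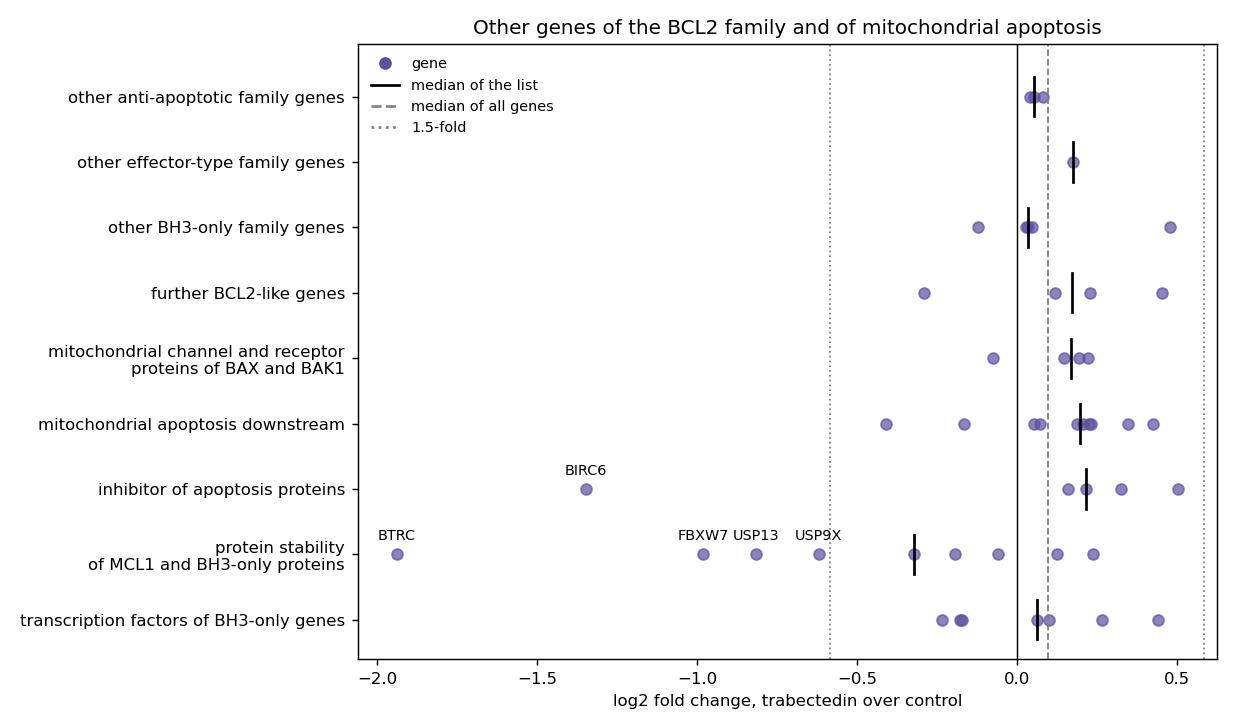
Log2 fold change, trabectedin over control (x axis), of the 48 other listed genes that were measured (points), by list (y axis); short bars are list medians, the dashed line is the median of all genes (0.10) and the dotted lines mark 1.5-fold. The 5 named genes lie past 1.5-fold on the lower side, 4 of them among the genes of protein stability.

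The members' directions were compared under other settings. The signs of 7 of the 9 members, the exceptions being BAX and PMAIP1, were the same in every setting tried. Most settings could not have turned these signs. Those that change only the fit or the genes kept, such as the replicate block, leave the log2 fold change as it is. Leaving out an array cannot turn a sign where the groups did not overlap, which held for every member but PMAIP1. For these 7 members only repeated quantile normalization, the scaling and, for BCL2L11, the mean of its clusters could do so. Scaling the arrays to 47 ribosomal protein genes put the median over all genes at -0.12 (log2 fold change), against 0.10 in the values as deposited, and the scaled log2 fold changes, to be read beside that shift, were -0.94 for BCL2, -0.63 for BCL2L1, -0.40 for BID, 0.11 for BAK1, 0.47 for BMF and 0.24 for BCL2L11.

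**Figure D5:**
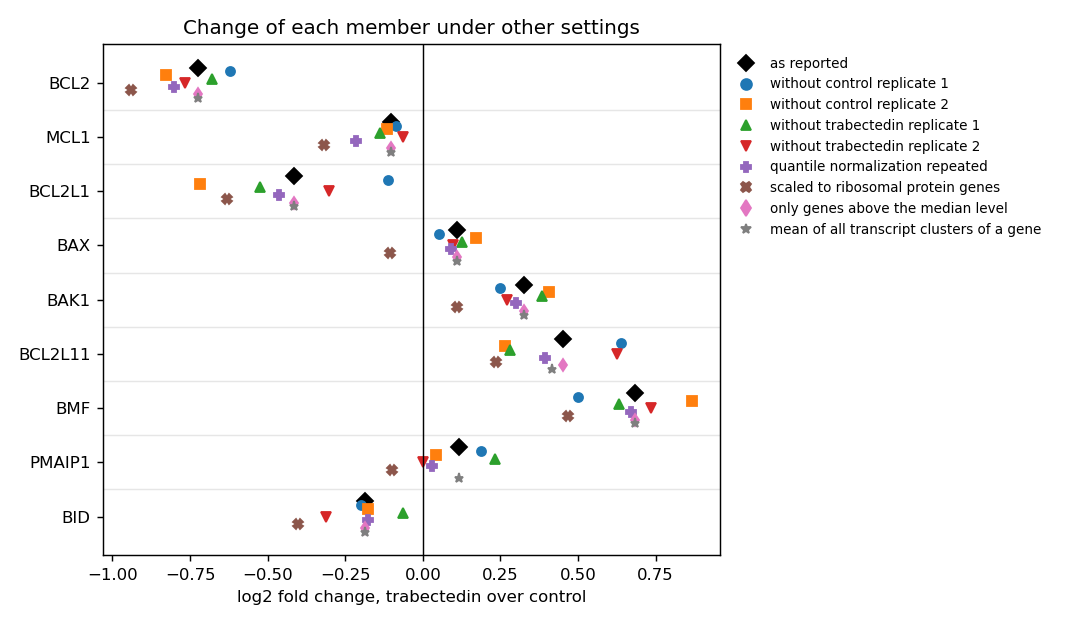
Log2 fold change, trabectedin over control (x axis), of the 9 members (y axis) as reported and under 8 other settings (symbols). BCL2 stays between -0.94 and -0.62 and BMF between 0.47 and 0.87, whereas BAX and PMAIP1 cross 0.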

How the data were processed

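RNA of U266 cells was hybridised to 4 Affymetrix Human Transcriptome 2.0 arrays, 2 with trabectedin and 2 controls. The authors made the deposited log2 values with RMA in Affymetrix Expression Console (version not given in the sources used here). Values over 16 occur on 843 to 899 features of each array, above the log2 range of a 16-bit scanner, and whether the values were rescaled is not given in the sources used here. No detection calls were used and the number of arrays limits the precision.

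Of 70523 features, 23781 carried 1 gene symbol, 1543 several and 45199 none in the platform annotation. Symbols were updated through RefSeq (GRCh38.p14), which matched 23777 features. For each gene the single-symbol transcript cluster that was brightest on average over the 4 arrays represented it.

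Groups were compared on all 22411 genes with limma 3.58.1 in R 4.3.3 (lmFit and eBayes, no block), with Benjamini-Hochberg adjustment over all genes and a threshold of 0.05. Differences past 1.5-fold and arrays that did not overlap were counted beside it. The script was tested on simulated data. The alternatives were leaving out each array, the replicate block, repeated quantile normalization and scaling to ribosomal protein genes. Further ones were a filter on dim genes, the mean of all clusters, a mean-variance trend, other fold thresholds and Student's t-test.

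The members and lists were chosen with earlier results of these data known. The genes named are all members, a fixed set of family and apoptosome genes, and any other listed gene that differed by 1.5-fold without overlap or passed the test in the main or blocked fit. FOXO1, FOXO3, VDAC and MTCH2 were named outside this rule, after their values were seen. Some listed genes are not reported here.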

Additional observations from a re-analysis of the deposited data

How the results depend on the processing

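No member passed an adjusted p of 0.05 under any setting other than the replicate block. Same-numbered arrays of the groups deviated together (r = 0.559 over 22411 genes), but the labels do not say that a number marks a shared experiment and there are only 2 pairs. With the replicate block BCL2 (-0.72) had an adjusted p of 0.0369 (limma), so that 1 anti-apoptotic member was called lower, and 5 of the other listed genes were (BIRC6 0.0203, FBXW7 0.0194, USP9X 0.0377, BTRC 0.0174 and USP13 0.0273), among 499 higher and 893 lower genes in all, against 0 and 0 without it. The block changed no other call of a member; BMF had 0.0588 and BCL2L11 0.0647. Scaled to ribosomal protein genes, the log2 fold change was -0.10 for BAX, -0.10 for PMAIP1, -0.17 for BCL2L2, -0.0402 for BOK, -0.17 for BAD, -0.19 for HRK and -0.14 for CASP9; 2 anti-apoptotic and 0 BH3-only members passed 1.5-fold, 3 other listed genes were called lower (BIRC6, FBXW7 and BTRC), and over all genes 147 were at least 1.5-fold higher and 1700 lower (627 and 1038 without it), with 2 called higher and 428 lower.

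Without trabectedin replicate 2, the log2 fold change turned sign for PMAIP1 (range over the arrays left out in turn -0.00084 to 0.233), BIK (-0.263 to 0.0176) and HRK (-0.108 to 0.165), and BTRC was called lower (adjusted p = 0.0209, limma), 1 of 223 lower and 5 higher genes. It did so for BCL2L2 (-0.0538 to 0.136) and BAD (-0.0157 to 0.108) without control replicate 2, and for HRK (-0.0602) without control replicate 1. Leaving out each array in turn gave 1 to 2 anti-apoptotic members at least 1.5-fold lower. It gave 1 to 2 BH3-only members and 1 to 2 other listed genes at least 1.5-fold higher. Over all genes these settings gave 782 to 1275 at least 1.5-fold higher and 1009 to 1280 lower, against 627 and 1038 with all arrays. With a threshold of 1.2-fold, 2 anti-apoptotic members were lower, 1 effector and 2 BH3-only members were higher, and 8 other listed genes were higher and 8 lower. With a threshold of 2-fold these were 0 anti-apoptotic and 0 BH3-only members and 2 other listed genes, which were lower. The shares of all genes past 1.2-fold and 2-fold are not given, so these counts have no background beside them. Student's t-test is named in the methods for differences between means, without mention of the arrays. At its threshold of 0.05 it gave 0 members higher and 1 lower, among 1400 higher and 992 lower genes. After Benjamini-Hochberg adjustment it gave 0 in either direction. The cause of these differences was not tested. PMAIP1 was left out by the filter on dim genes. With 2 arrays per group, the unadjusted 95% intervals of MCL1, BCL2L1, BAX, BCL2L11, PMAIP1 and BID included 0.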
